A study of Homo sapiens with 14 samples.

Results

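The heme synthesis enzymes described here are ALAS1, ALAD, UROS, UROD, CPOX, PPOX and FECH, 7 of the 57756 genes in the deposited tables. They were chosen by name, as the enzymes of a pathway whose last member, FECH, was known to have differed between cells given wild-type U2AF1 and U2AF1 knockdown cells. That comparison is therefore given as a description, with no test, and the gene level of FECH was left untested wherever the knockdown libraries or the mean of the wild-type libraries entered. The 7 genes have 81 of the 195553 isoforms listed, and all of them were among the 14233 genes tested. The enzyme of the third step is not analysed here.

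Heme is made in a chain of reactions that starts in the mitochondrion, continues in the cytosol and ends in the mitochondrion, where iron is put into the porphyrin ring. Outside red cell precursors the pace is set by ALAS1, whose message and protein are held down by heme itself. Inherited loss of the later enzymes causes the porphyrias, and FECH is known for a message that is sensitive to the choice of splice site.

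The study sequenced RNA from A549, an established line grown from a human lung carcinoma, as 14 libraries in 7 groups of 2, to compare splicing under wild-type and S34F U2AF1. U2AF1 is a splicing factor subunit that reads the AG closing an intron, and S34F is a mutation of it found in cancers. In 4 groups U2AF1 was knocked down and then a virus supplied U2AF1 of isoform v3 or v1, as S34F or as wild type. These groups are called v3 S34F, v1 S34F, v3 wild type and v1 wild type. The knockdown group had the same knockdown with an empty vector, the control group an empty vector with a control siRNA, and the untreated group neither. The labels do not say whether replicates were separate cultures. The p-values therefore reflect no more than the scatter of these samples, and that scatter may be technical.

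The labels were checked against U2AF1 itself. It averaged 22.5 FPKM (fragments scaled by transcript length and by mapped library size) in the knockdown, against 118 FPKM in control cells. With a construct it stood at 2614 to 3016 FPKM, 22.2 to 25.6 times control, so these groups hold a large excess and not a restored level. FPKM does not separate the S34F from the wild-type allele. In v1 S34F replicate 2, the shallowest library, a single isoform of AL132768.1 took 33.1% of the FPKM sum, and MIR1260B took 8.81% in knockdown replicate 1. The 5 epithelial markers KRT8, KRT18, KRT19, EPCAM and CDH1 were at 2.20 FPKM or more in every library. Of these, KRT8 and KRT18 stood at 1083 FPKM or more throughout. Of 11 erythroid markers 2 were at 0 in every library and only EPOR reached 1 FPKM, and ALAS2, the erythroid form of ALAS1, reached at most 0.134 FPKM. CD14 reached 2.58 FPKM, the only 1 of 4 leukocyte markers to reach 1 FPKM in any library. COL1A1 reached 9.37 FPKM, the only 1 of 4 fibroblast markers to do so. The 2 endothelial markers found reached at most 0.102 FPKM. The summed fibroblast markers averaged 7.13 FPKM in the knockdown, the lowest group, against 8.66 in control cells, the highest. The summed leukocyte markers averaged 0.892 FPKM in the knockdown, again the lowest, against 1.58 in control cells, and at most 1.98 in any group. The part of these markers in the knockdown results was not tested. In whole cultures, fewer cells of a kind and less RNA per cell cannot be told apart.

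UROS was the most abundant of the 7 enzymes per length, with a median of 58.2 FPKM over the 14 libraries, followed by FECH with 55.1 FPKM. ALAS1 had a median of 40.0 FPKM, UROD 30.3 FPKM and CPOX 19.2 FPKM. PPOX with 9.71 FPKM and ALAD with 7.14 FPKM were the lowest. FECH varied most, 3.20-fold between its lowest and highest library, while ALAS1, UROS, UROD and CPOX stayed within 1.63- to 1.69-fold. For FECH these were knockdown replicate 2 and v1 wild type replicate 2. They belong to the comparison that led to its choice, so its wide range is a description.

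**Figure D1:**
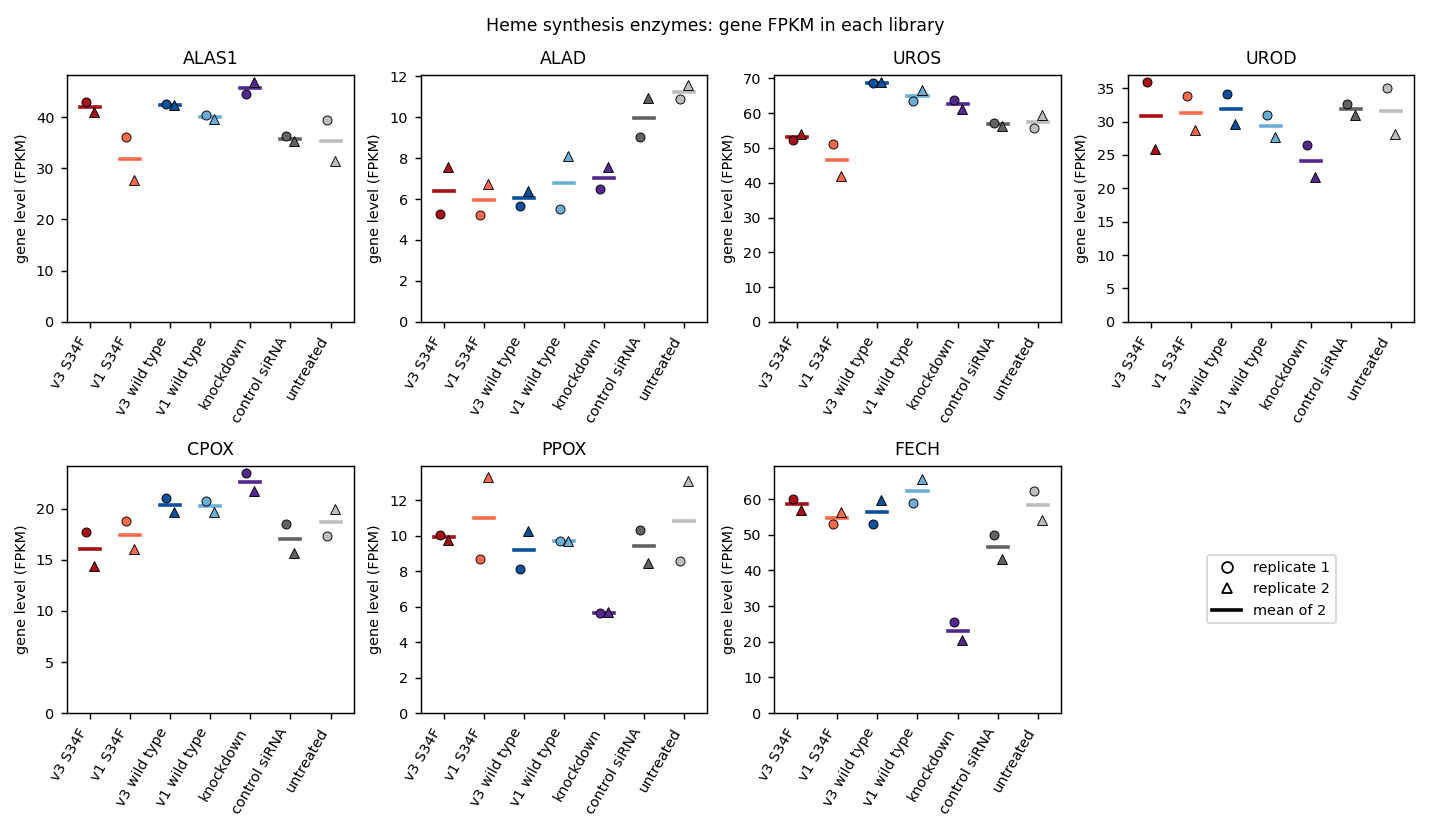
Gene level in FPKM of each enzyme in each library, with a circle for replicate 1, a triangle for replicate 2 and a bar for the mean of the 2 libraries of a group. FECH and PPOX are lowest in the knockdown, UROS is lowest in the S34F groups, and ALAD is highest in the control and untreated cells.

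ALAS1, on chromosome 3 at 52232102 to 52248343 (GRCh37), joins glycine to succinyl-CoA and opens the pathway. Its level was 42.9 and 40.9 FPKM in v3 S34F, 36.1 and 27.7 in v1 S34F, 42.6 and 42.3 in v3 wild type and 40.4 and 39.6 in v1 wild type. It was 44.4 and 46.8 FPKM in the knockdown, against 36.4 and 35.3 in control and 39.3 and 31.3 in untreated cells. Both knockdown libraries were above the other 12, the highest of which had 42.9 FPKM, as in 5.03 percent of the genes tested, and v1 S34F replicate 2 was the lowest of all. The difference between knockdown and control, 0.34 on the log2(FPKM + 1) scale, did not pass the test (SE 0.14, adjusted p = 0.225, limma). S34F cells averaged 36.9 FPKM, against 45.6 FPKM in the knockdown, a difference of -0.32 (SE 0.12, adjusted p = 0.127). With the replicate number as a block that adjusted p was 0.0482.

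ALAS1 also differed in splicing ahead of its start codon. An alternative exon of 177 bases, carried by isoform ENST00000484952 and a minor isoform, lies in the 5′ untranslated region, between the opening exon and the exon with the start codon. Isoforms with that exon made up 15.1% and 15.9% of the FPKM of the isoforms compared in v3 S34F, 26.5% and 26.3% in v1 S34F, 7.59% and 10.8% in v3 wild type and 13.4% and 16.0% in v1 wild type. The share was 2.59% and 5.84% in the knockdown, 6.07% and 8.95% in control and 11.2% and 13.2% in untreated cells. Within each construct, S34F libraries and wild-type libraries did not overlap, S34F being higher, and the knockdown libraries were below the other 12. Usage of ENST00000484952 separated the same libraries. Of the isoforms tested, 6.39 percent had S34F above wild type within both constructs and 3.39 percent had both knockdown libraries below the rest.

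Usage of ENST00000484952, its percent of the gene's FPKM, averaged 18.5% with S34F, against 2.92% in the knockdown. The difference of 15.5 points passed the test across isoforms (SE 2.51, adjusted p = 0.0209, limma), where 2.1 percent of the isoforms tested were called. The call was lost without knockdown replicate 1 (adjusted p = 0.146), knockdown replicate 2 (0.106) or v3 S34F replicate 2 (0.0654), and with only the compared groups in the fit (0.152). Against wild type, where usage averaged 9.95%, the difference was 8.51 points (SE 2.05) and was not called (adjusted p = 0.108). Against control cells, with 7.37%, it was 11.1 points (SE 2.51, adjusted p = 0.103). A further choice at the exon with the start codon, between acceptors 11 bases apart, ran from 51.3% to 84.2% upstream use over the libraries. The v1 S34F libraries, at 84.2% and 73.2%, were above those of v3 S34F, v3 wild type, the knockdown and control and overlapped v1 wild type and untreated cells.

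ALAD, on chromosome 9 at 116148597 to 116163613 (GRCh37), joins pairs of aminolevulinic acid molecules into porphobilinogen. Its level was 5.28 and 7.55 FPKM in v3 S34F, 5.21 and 6.74 in v1 S34F, 5.68 and 6.42 in v3 wild type and 5.51 and 8.08 in v1 wild type. The knockdown had 6.50 and 7.55 FPKM, against 9.03 and 10.9 in control and 10.9 and 11.6 in untreated cells. All 10 libraries with U2AF1 knockdown, with or without a construct, were below the 4 without it, a pattern that 2.94 percent of the genes tested had. The 8 construct libraries lay between 5.21 and 8.08 FPKM, on both sides of the knockdown.

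The differences of ALAD from control cells were -0.62 with S34F (SE 0.19, adjusted p = 0.0679), -0.57 with wild type (SE 0.19, adjusted p = 0.211) and -0.45 in the knockdown (SE 0.21, adjusted p = 0.290), none of them called. With the replicate block the first had an adjusted p of 0.00569 and the wild-type difference 0.0289, and the block raised the share of genes called to 21.6 percent for S34F and 3.84 percent for wild type. The main coding isoform, ENST00000409155, separated the same libraries. It held 66.0% to 78.0% of ALAD FPKM in the 4 libraries without knockdown and 20.2% to 65.5% in the other 10, and 0.3 percent of the isoforms tested separated these libraries in that direction. Its usage averaged 41.4% with wild type, against 76.8% in control cells, and this was not called (-35.4 points, SE 8.90, adjusted p = 0.589). The split was not particular to ALAD. The coding UROD isoform ENST00000246337 also had lower usage in all 10 libraries with knockdown than in the 4 without it. It averaged 67.8% in control cells and 63.8% in the knockdown.

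In another ALAD isoform, ENST00000482847, annotated as a retained intron, exon 3 starts 166 bases further upstream. The upstream acceptor took 18.5% and 13.4% of the isoforms compared in v3 S34F, 39.5% and 53.6% in v1 S34F, 13.2% and 24.3% in v3 wild type and 26.4% and 43.9% in v1 wild type. It took 13.4% and 16.6% in the knockdown, 8.30% and 12.2% in control and 8.17% and close to 0% in untreated cells. The v1 libraries were above the v3 libraries for S34F and for wild type alike, whereas S34F and wild type overlapped within v1 and within v3. Usage of that isoform showed the same order of v1 and v3, which 2.89 percent of isoforms had. For that usage, v3 S34F against v1 S34F differed by -27.8 points (14.998% against 42.8%, SE 5.62), which was not called (unadjusted p = 0.000691, adjusted p = 0.457), and 0.00479 percent of isoforms were called there. The sequence into the downstream acceptor is shown because the v1 libraries used it less than the v3 libraries. It is written in lower case with the final 3 bases of the intron in capitals, followed by 15 bases of exon 3, at chr9:113392155-113392232 on the minus strand (GRCh38, from a GENCODE 29 transcript).
ALAD exon 3 downstream acceptor: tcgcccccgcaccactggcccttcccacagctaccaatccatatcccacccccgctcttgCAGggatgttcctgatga

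UROS, on chromosome 10 at 127477146 to 127511817 (GRCh37), closes the linear tetrapyrrole into a ring. Its level was 52.2 and 54.0 FPKM in v3 S34F, 51.3 and 41.9 in v1 S34F, 68.7 and 69.0 in v3 wild type and 63.5 and 66.6 in v1 wild type. The knockdown had 63.8 and 61.3 FPKM, control cells 57.1 and 56.4 and untreated cells 55.8 and 59.4. The 4 S34F libraries were below all 10 others, a pattern that 2.68 percent of genes had, and the 4 wild-type libraries included the highest values. UROS was lower with S34F, at 49.8 FPKM against 66.9 FPKM with wild type. It was the 1 enzyme of 6 tested that was called in that comparison, where 1.85 percent of genes were called. Control cells lay between, at 56.8 FPKM. By limma, S34F differed from control by -0.19 (SE 0.09, adjusted p = 0.237) and wild type by 0.23 (SE 0.09, adjusted p = 0.312), neither of them called.

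The difference of UROS between S34F and wild type was -0.42 (SE 0.08, adjusted p = 0.0232, limma). The call was lost with only the compared groups in the fit (adjusted p = 0.0900) and when any of the 8 compared libraries other than v1 S34F replicate 1 was left out, with adjusted p between 0.0571 and 0.103, and the difference then stayed between -0.35 and -0.44. Without v1 S34F replicate 2, the lowest library, it was -0.35 (adjusted p = 0.0751). The effect was not shown to differ between constructs (interaction 0.11, SE 0.16, adjusted p = 1). Against the knockdown the S34F difference was -0.33 (SE 0.09, adjusted p = 0.0557, and 0.0232 with the replicate block). Among UROS isoforms, the noncoding ENST00000484541 stood at 7.58% and 13.6% in v3 S34F and 5.74% and 14.04% in v1 S34F, against 2.56% to 5.29% in the 4 wild-type libraries, and 4.25 percent of isoforms had S34F above wild type in this way. It was not called (6.25 points, SE 2.09, adjusted p = 0.252), and untreated cells at 5.96% and 5.81% lay within the S34F range.

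UROD, on chromosome 1 at 45477819 to 45481247 (GRCh37), trims the side chains of the ring to give coproporphyrinogen. Its level was 35.9 and 25.9 FPKM in v3 S34F, 33.8 and 28.8 in v1 S34F, 34.2 and 29.7 in v3 wild type and 31.0 and 27.7 in v1 wild type. The knockdown had 26.5 and 21.7 FPKM, against 32.7 and 31.1 in control and 35.0 and 28.1 in untreated cells. In every group replicate 1 was above replicate 2, and the knockdown was the lowest group. The difference between knockdown and control was -0.40 (SE 0.18, adjusted p = 0.263), with an adjusted p of 0.0366 once the replicate number was a block. S34F against knockdown gave 0.35 (SE 0.15, adjusted p = 0.179, and 0.0209 with the block).

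A short noncoding isoform of UROD, ENST00000491773, followed another pattern. Its usage was 4.00% and close to 0% in v3 S34F, 0.774% and close to 0% in v1 S34F, 10.1% and 6.24% in v3 wild type and 12.1% and 9.17% in v1 wild type. It was 0.0102% and close to 0% in the knockdown, 10.2% and 5.68% in control and 9.12% and 5.03% in untreated cells. S34F and knockdown libraries thus lay at or below 4.00% and the other 8 at or above 5.03%, a split seen after the values were examined that 0.412 percent of isoforms had. S34F against wild type gave -8.23 points (SE 1.83, adjusted p = 0.0872, and 0.0326 with the replicate block). The exon 2 acceptor of this isoform, 50 bases upstream of the usual acceptor, is shared by 5 isoforms, and their sum did not follow it. That sum was 9.77% to 15.05% in all 14 libraries, 11.7% in v3 S34F, 11.9% in v1 S34F, 12.6% in v3 wild type, 13.3% in v1 wild type and 11.4% in the knockdown on average.

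CPOX, on chromosome 3 at 98239976 to 98312567 (GRCh37), oxidises coproporphyrinogen in the space between the mitochondrial membranes. Its level was 17.7 and 14.4 FPKM in v3 S34F, 18.8 and 16.1 in v1 S34F, 21.1 and 19.7 in v3 wild type and 20.7 and 19.7 in v1 wild type. The knockdown had 23.5 and 21.8 FPKM, against 18.5 and 15.7 in control and 17.4 and 19.97 in untreated cells. Both knockdown libraries were above the other 12, as for ALAS1, and each S34F library was below each wild-type library, as in 6.65 percent of genes. The differences were 0.39 for knockdown against control (SE 0.15, adjusted p = 0.182), -0.27 for S34F against wild type (SE 0.10, adjusted p = 0.225) and -0.42 for S34F against knockdown (SE 0.13, adjusted p = 0.0630, and 0.0172 with the replicate block). A fragment annotated as a retained intron, ENST00000510489, held 13.1% and 20.5% of CPOX in v1 S34F and at most 6.88% elsewhere, and 2.09 percent of isoforms had v1 S34F above all other libraries. Its S34F effect in v3 minus that in v1 was -14.5 points (SE 4.21), which was not called (unadjusted p = 0.00680, adjusted p = 1).

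PPOX, on chromosome 1 at 161136200 to 161147803 (GRCh37), oxidises the ring to protoporphyrin, the substrate of FECH. Its level was 10.1 and 9.77 FPKM in v3 S34F, 8.71 and 13.3 in v1 S34F, 8.13 and 10.3 in v3 wild type and 9.73 and 9.70 in v1 wild type. The knockdown had 5.65 and 5.68 FPKM, against 10.4 and 8.48 in control and 8.57 and 13.1 in untreated cells. The knockdown libraries were both below the other 12, as in 7.26 percent of genes. PPOX was the 1 enzyme of 6 tested that was called between S34F and knockdown, where 8.94 percent of genes were called.

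PPOX was higher with S34F than in the knockdown by 0.77 (10.47 against 5.67 FPKM, SE 0.19, adjusted p = 0.0350, limma). The adjusted p was 0.0832 with no filter on low values, 0.0548 after quantile normalization and 0.115 with only the compared groups in the fit. The adjusted p was above 0.05 also without either knockdown library (0.170 and 0.218), either v1 wild-type library (0.0546 and 0.0541), either v3 S34F library (0.0599 and 0.0886) or v1 S34F replicate 2 (0.0873). Knockdown against control gave -0.64 (5.67 against 9.41 FPKM, SE 0.22, adjusted p = 0.157). PPOX RNA was spread over 8 isoforms of at least 5% mean usage, 5 of them annotated as retained introns. A short coding isoform, ENST00000544598, held 15.9% and 28.5% in the knockdown and at most 12.4% in the other libraries. Both knockdown libraries were above the other 12 in 3.6 percent of the isoforms tested. These are shares of a gene at 5.65 and 5.68 FPKM in the knockdown. The usage of ENST00000544598 was also compared between S34F and knockdown. It averaged 2.22% with S34F, against 22.2% in the knockdown, a called difference of -19.96 points (SE 3.58, adjusted p = 0.0291) that was lost on the arcsine scale (0.0925), with only the compared groups in the fit (0.175), without knockdown replicate 2 (0.166), without either v1 S34F library (0.0561 and 0.0671) and without v3 S34F replicate 2 (0.0849).

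FECH, on chromosome 18 at 55215515 to 55254004 (GRCh37), inserts iron into protoporphyrin at the inner mitochondrial membrane and carries an iron-sulfur cluster. Its level was 60.1 and 56.9 FPKM in v3 S34F, 53.1 and 56.3 in v1 S34F, 53.1 and 59.9 in v3 wild type and 58.9 and 65.7 in v1 wild type. The knockdown had 25.5 and 20.5 FPKM, against 50.05 and 43.2 in control and 62.4 and 54.0 in untreated cells. The knockdown libraries stood far below the other 12, the lowest of which had 43.2 FPKM. Both knockdown libraries were below the rest in 7.26 percent of genes. For FECH this is a description, since the knockdown libraries led to its choice.

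In the comparison that led to the choice of FECH, it averaged 59.4 FPKM with wild-type U2AF1 and 23.03 FPKM in the knockdown, a difference of 1.33, and the next in size were PPOX with 0.65 and UROD with 0.34. ALAS1, ALAD, UROS and CPOX lay between -0.15 and 0.10 there. Against the knockdown, S34F cells were higher by 1.27 for FECH, with 56.6 FPKM, and the difference of the knockdown from control was -0.99. These values come from overlapping libraries and are not separate evidence. From high to low the group means were 62.3 ± 4.77 FPKM in v1 wild type, 58.5 ± 2.31 in v3 S34F, 58.2 ± 5.93 in untreated cells, 56.5 ± 4.76 in v3 wild type, 54.7 ± 2.25 in v1 S34F, 46.6 ± 4.88 in control cells and 23.03 ± 3.55 in the knockdown (SD, n = 2 each). The gaps among the highest 5 groups were smaller than the larger SD of each pair of neighbours. The gap of 8.06 FPKM above control and the gap of 23.6 FPKM between control and the knockdown were larger.

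The level of FECH was tested where its choice did not enter. S34F cells had 56.6 FPKM, against 46.6 FPKM in control cells, with the 4 S34F libraries above the 2 control libraries as in 18.9 percent of genes, and the difference of 0.28 was not called (SE 0.12, adjusted p = 0.175). The difference of control from untreated cells was -0.31 and was not called (46.6 against 58.2 FPKM, SE 0.14, unadjusted p = 0.0432, adjusted p = 0.965). Differences between v3 and v1 were -0.14 for wild type (SE 0.14) and 0.10 for S34F (SE 0.14), both with an adjusted p of 1.

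The 2 full-length coding isoforms of FECH, ENST00000382873 and ENST00000262093, both of 11 exons, were summed after the values were seen. Together they had 32.8 and 33.7 FPKM in v3 S34F, 32.3 and 31.8 in v1 S34F, 31.5 and 34.3 in v3 wild type and 32.8 and 39.7 in v1 wild type. They had 11.1 and 11.3 FPKM in the knockdown, against 25.7 and 23.5 in control and 26.8 and 29.8 in untreated cells. The knockdown thus held 45.4% of control, wild type 3.10 times the knockdown and S34F 1.33 times control. All 8 construct libraries were above all 4 control and untreated libraries in this sum. At the gene level 4.49 percent of genes had that split, and 0 of the 7 enzymes, so FECH as a whole did not. That share is for whole genes, and none is given for sums of isoforms. The wild-type and knockdown libraries are those behind the choice of FECH. The 5-exon isoform ENST00000585747, of 564 bases, ranged from 8.1% to 42.5% of FECH FPKM.

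**Figure D2:**
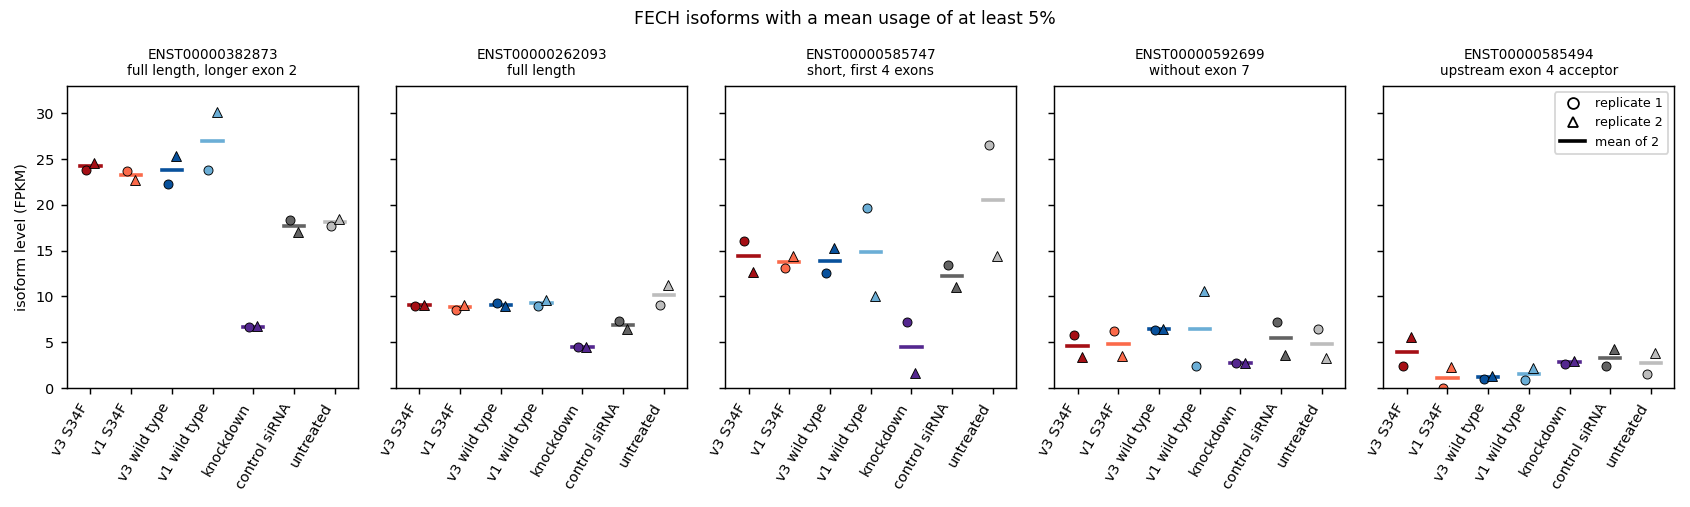
Level in FPKM of the 5 FECH isoforms with a mean usage of at least 5%, in each library, with a circle for replicate 1, a triangle for replicate 2 and a bar for the mean. The full-length isoforms are lowest in the knockdown, whereas the isoform with the upstream exon 4 acceptor is within the range of the other groups there.

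The FECH splice choice known from erythropoietic protoporphyria is an acceptor 63 bases upstream of exon 4, whose use adds a stretch with an in-frame stop codon. It is used by ENST00000585494, annotated as a target of nonsense-mediated decay, and by a short fragment. The sequence into the usual downstream acceptor is given with the final 3 bases of the intron in capitals and 15 bases of exon 4, at chr18:57571526-57571603 on the minus strand (GRCh38, from a GENCODE 29 transcript), because the knockdown used this site less.
FECH exon 4 downstream acceptor: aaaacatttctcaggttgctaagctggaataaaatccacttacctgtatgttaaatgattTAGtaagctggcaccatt
The capitals read TAG here and CAG at the ALAD acceptor. Of the 20 bases before the capitals 11 are pyrimidines here and 15 at the ALAD acceptor.

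The upstream exon 4 acceptor took 4.15% and 9.99% of the isoforms compared in v3 S34F, close to 0% and 4.40% in v1 S34F, 1.92% and 2.32% in v3 wild type and 1.59% and 3.42% in v1 wild type. It took 12.5% and 17.0% in the knockdown, 5.01% and 9.96% in control and 2.57% and 7.48% in untreated cells. The knockdown libraries were above the other 12, and the v3 S34F libraries were above all wild-type libraries while v1 S34F overlapped them. Usage of ENST00000585494 separated the same libraries. Of the isoforms tested, 9.54 percent had v3 S34F above wild type, with 4 of the 29 tested isoforms of the enzymes among them. Both knockdown libraries were above the rest in 3.6 percent, with 3 of the 29 among them, which is a description since it includes the comparison behind the choice of FECH. S34F against knockdown gave -7.99 points (4.45% against 12.4%, SE 2.55, adjusted p = 0.155, and 0.0408 with the replicate block, which called 3.34 percent of isoforms). Knockdown against control gave 5.10 points (12.4% against 7.33%, SE 2.95, adjusted p = 0.616), and S34F against wild type 2.19 points (4.45% against 2.25%, SE 2.08, adjusted p = 0.797). The isoforms with this acceptor had 3.09 and 3.22 FPKM in the knockdown, against 2.44 and 4.22 in control cells. Usage in the knockdown and wild-type libraries divides by the FECH levels behind its choice, so these p-values are not separate evidence.

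Another choice distinguishes the full-length isoforms, a donor of exon 2 that lies 18 bases further downstream and keeps the reading frame in ENST00000382873. The added bases are in capitals after 15 bases of exon 2, at chr18:57580055-57580087 on the minus strand (GRCh38, from a GENCODE 29 transcript).
FECH exon 2 downstream donor: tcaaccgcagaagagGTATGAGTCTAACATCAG
This donor took 39.6% and 43.3% in v3 S34F, 44.7% and 41.3% in v1 S34F, 42.9% and 43.7% in v3 wild type and 40.8% and 46.3% in v1 wild type. It took 26.3% and 34.6% in the knockdown, 37.8% and 39.4% in control and 28.9% and 34.6% in untreated cells. The knockdown and untreated libraries overlapped, and both groups lay below the other 10 libraries, as in 0.307 percent of isoforms by usage. For usage of ENST00000382873, S34F against knockdown gave 12.4 points (42.0% against 29.6%, SE 3.87, adjusted p = 0.145), and knockdown against control gave -8.42 points (29.6% against 38.0%, SE 4.47, adjusted p = 0.577). These splice choices were picked after the values were seen and are descriptions. Usage in the knockdown again divides by the FECH level behind its choice, so the p-values here are not separate evidence.

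**Figure D3:**
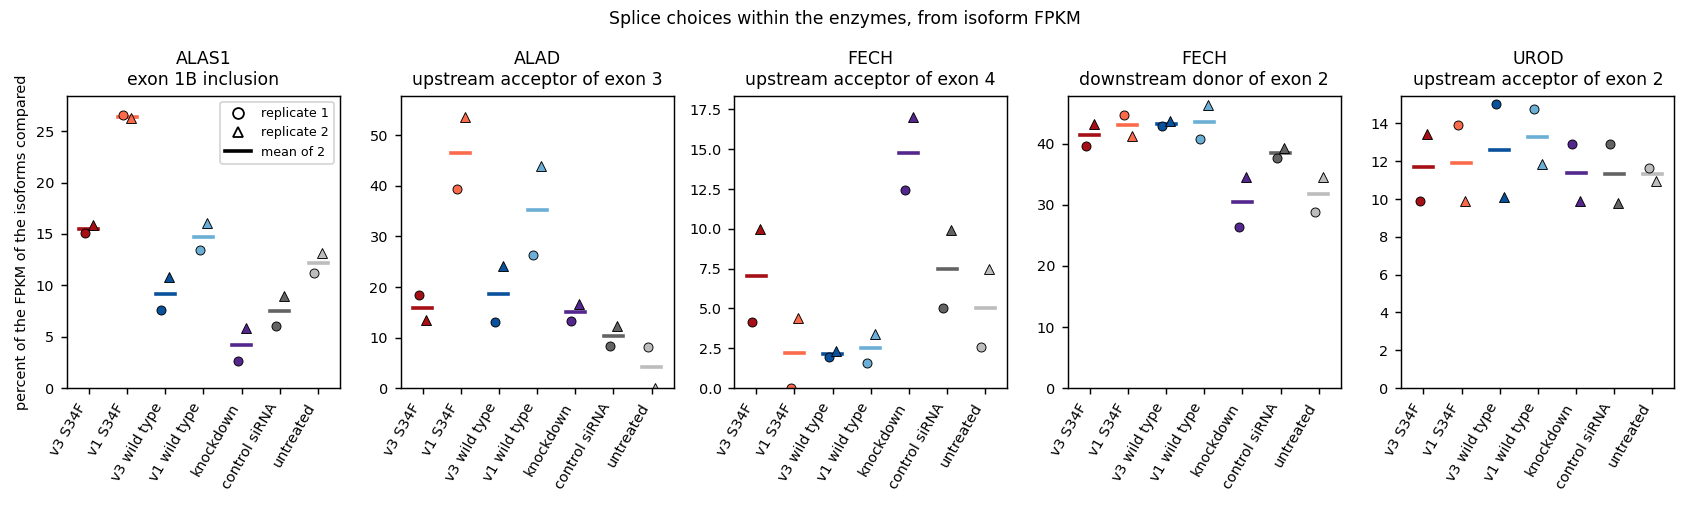
Percent of the FPKM of the isoforms compared that uses each splice choice, in each library, with a circle for replicate 1, a triangle for replicate 2 and a bar for the mean. The 177-base exon of ALAS1 (exon 1B) is highest in v1 S34F and lowest in the knockdown, the FECH exon 4 acceptor is highest in the knockdown, and the UROD acceptor stays between 9.77% and 15.05%.

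Between knockdown and control cells, 0 of the 6 enzymes tested were called by limma, where 2.85 percent of genes were called. At an unadjusted p under 0.05 there were 4, against 18.9 percent of genes, with ALAS1 and CPOX above 0 and UROD and PPOX below it. Of the 6 differences 3 were above 0. The members' median was -0.13, against -0.01 over all genes tested. With the replicate block 1 of 6 was called, UROD, where 11.8 percent of genes were. Between S34F and knockdown 2 enzymes were above 0 and 4 below it, with a median of -0.24 against 0.04 over all genes. There the block called 5 of 6, all but ALAD, where it called 23.4 percent of genes, and 5 had an unadjusted p under 0.05 without it, against 26.4 percent of genes. Without v1 S34F replicate 1 the count was 4 of 6 with no block, and it was 0 without either knockdown library, either v1 wild-type library, v1 S34F replicate 2 or v3 S34F replicate 2. Of the 5, PPOX and UROD were higher with S34F, and ALAS1, UROS and CPOX were lower. Between S34F and wild type UROS and CPOX had an unadjusted p under 0.05, against 15.9 percent of genes, and the median was -0.11 against 0.02 over all genes.

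Between wild type and control, 0 of 6 were called by limma, where 0.436 percent of genes were, and ALAD and UROS had an unadjusted p under 0.05, against 13.6 percent of genes. Between S34F and control, 0 of 7 were called, where 7.81 percent of genes were, and ALAD and FECH had an unadjusted p under 0.05, against 25.5 percent. Between control and untreated cells 0 of 7 were called and FECH alone had an unadjusted p under 0.05, against 0 percent called and 5.13 percent unadjusted over all genes. No enzyme was called between v3 and v1, and 0 percent of genes were called there for wild type, S34F or the difference of their effects. At an unadjusted p under 0.05 there were 0 of 7 enzymes for wild type (1.05 percent of genes), 1 for S34F (1.69 percent) and 0 for the difference of effects (0.71 percent). ALAS1 alone had an unadjusted p under 0.05, in the S34F comparison of v3 with v1 (41.9 against 31.9 FPKM, 0.40, SE 0.14, adjusted p = 1), and its lowest library was v1 S34F replicate 2.

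**Figure D4:**
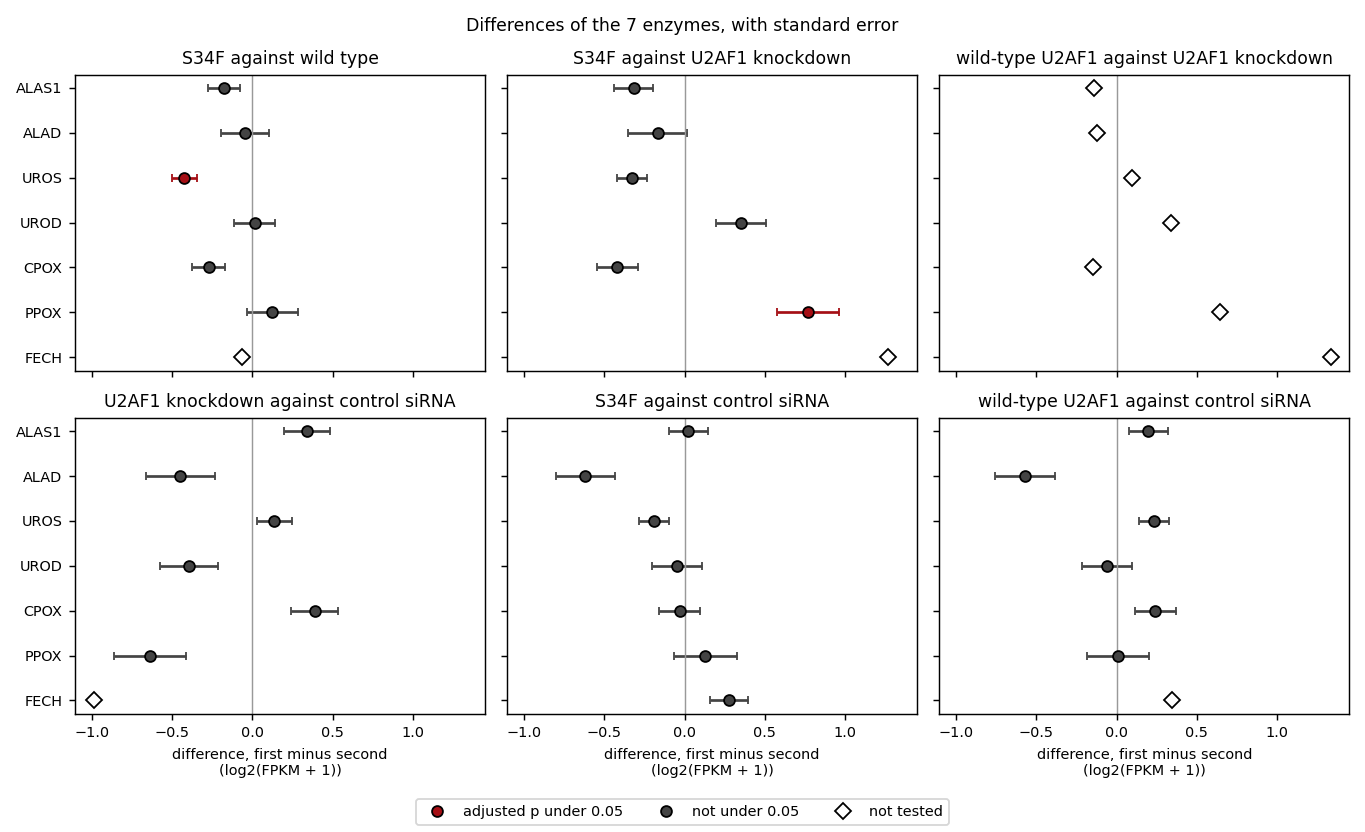
Difference of each enzyme on the log2(FPKM + 1) scale in 6 comparisons, group named first minus the other, with bars of 1 standard error. Filled red points have an adjusted p under 0.05 (UROS for S34F against wild type and PPOX for S34F against knockdown), grey points do not, and open diamonds were left untested.

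For isoform usage, 29 isoforms of the enzymes were tested, 5 of them of FECH. Where the knockdown or the mean of the wild-type libraries entered, usage of those 5 divides by the FECH levels behind its choice. The counts out of 29 in those comparisons are therefore descriptions. Between S34F and knockdown 2 were called, those of ALAS1 and PPOX given above, where 2.1 percent of isoforms were called, and 9 had an unadjusted p under 0.05 against 16.1 percent of all. By limma 0 were called between S34F and wild type (0.681 percent of isoforms called, with 8 of the 29 at an unadjusted p under 0.05 against 12 percent of all), between S34F and control (0.302 percent called, 7 against 13.7 percent), between wild type and control (0.00479 percent called, 3 against 6.33 percent) and between knockdown and control (0.129 percent called, 3 against 10.3 percent). Between v3 S34F and v1 S34F 0 of the 29 were called by limma, with 6 at an unadjusted p under 0.05 against 4.16 percent of all isoforms. The replicate block added UROD ENST00000491773 between S34F and wild type, where it called 0.995 percent of isoforms. It also added FECH ENST00000585494 between S34F and knockdown (adjusted p = 0.0408, limma), where it called 3.34 percent. That usage divides by the knockdown level behind the choice of FECH, so the call is not separate evidence.

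The genes most like FECH over the 14 libraries were DPM1 with a Pearson r of 0.961, SEC22A with 0.953, MTFMT with 0.931, TAF15 with 0.925 and UBLCP1 with 0.919, among 10249 genes with a mean of at least 5 FPKM. DPM1, the catalytic subunit of dolichol-phosphate mannose synthase, averaged 28.8 FPKM in the knockdown, against 53.5 in control cells. UBLCP1, a phosphatase that acts on the proteasome, averaged 15.1 FPKM in the knockdown, against 35.0 in control cells. SEC22A had 8.83 against 13.6 FPKM, MTFMT 13.96 against 17.8 and TAF15 154 against 194. All 5 were lowest in the knockdown. Of the other enzymes, PPOX had an r of 0.786 with FECH and UROD 0.646, ALAD -0.018, UROS -0.157, ALAS1 -0.385 and CPOX -0.475. These correlations share the same libraries and are descriptions.

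**Figure D5:**
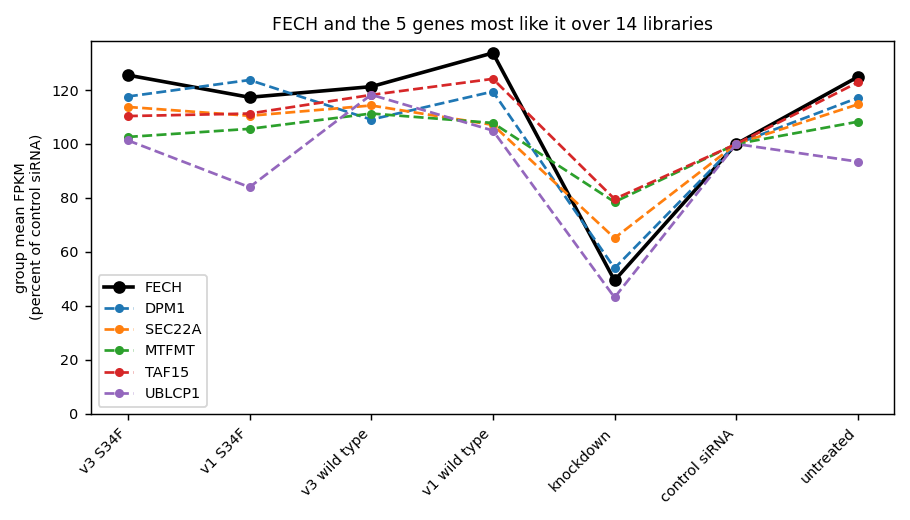
Group mean FPKM as a percent of control siRNA, for FECH and the 5 genes most like it over the 14 libraries. All 6 lines are lowest in the knockdown, where FECH stands at 49.4% of control, and the lines join groups only to guide the eye.

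Of 55 genes tested that supply or use the pathway, 10 were called in at least 1 comparison (18.2 percent, against 14.8 percent of all genes). Of 13 mitochondrial transporters and cofactors, ABCB10, a transporter of the inner membrane, fell with S34F against wild type (-0.54, adjusted p = 0.0214) and against the knockdown (-0.53, adjusted p = 0.0229). ABCB6, a porphyrin transporter, fell with S34F against the knockdown (-0.68, adjusted p = 0.0284). By limma 0 genes of that list were called between knockdown and control, where its median was -0.01 (2 of 13 at an unadjusted p under 0.05). The replicate block called 1 there, TSPO, a protein of the outer mitochondrial membrane named here after its values were seen (-0.52, adjusted p = 0.0355, against 0.117 without the block). Among the 3 makers of heme a and heme c, COX15, which makes heme a, rose in the knockdown against control (0.55, adjusted p = 0.0254) and was lower with S34F than in the knockdown (-0.36, adjusted p = 0.0347). Between S34F and wild type 0 of the 3 were called.

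Of 9 genes of heme export, import and breakdown, the importer SLC46A1 fell with S34F against the knockdown (-0.68, adjusted p = 0.0123) and the exporter FLVCR1 rose against control (0.59, adjusted p = 0.0357), while the heme oxygenases HMOX1 and HMOX2 were not called. Between S34F and wild type 0 of these 9 genes were called, and 1 with the replicate block. Of 6 regulators tested, NFE2L2, an activator of antioxidant genes, rose with S34F against control (0.74, adjusted p = 0.0243), and 0 of the 6 were called between S34F and wild type. Of 10 genes of iron uptake, storage and sensing, IREB2, which binds iron-responsive elements in messages such as those of ferritin, fell with S34F against wild type (-0.53, adjusted p = 0.0174), the knockdown (-0.54, adjusted p = 0.0178) and control (-0.82, adjusted p = 0.00410).

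Of 14 genes of iron-sulfur cluster assembly, FDXR, which passes electrons to ferredoxin, rose with S34F against the knockdown (1.36, adjusted p = 0.000931) and control (0.80, adjusted p = 0.00823). ISCU, the scaffold protein, rose in the same comparisons (0.52, adjusted p = 0.0171, and 0.47, adjusted p = 0.0245). NFU1, a cluster carrier, fell with S34F against wild type (-0.39, adjusted p = 0.0458) and was the 1 gene of this list called there. FDXR and ISCU were not called against wild type. Over the 6 lists there were 16 calls in 495 gene tests (3.23 percent, against 2.43 percent over all genes). The replicate block kept all of them and added 26, for 42 calls (8.48 percent, against 7.62 percent over all genes).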

How the data were processed

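RNA-seq of 14 A549 libraries was used as deposited by the authors, as isoform tables of FPKM and of coverage. The tools listed in the submitters' processing notes are Trimmomatic 0.30 and TopHat2 2.0.12, with the build GRCh37. For the quantifier and annotation, names are not given in the sources used. The deposited coverage (a signal per isoform) served only to compare depth: coverage over FPKM put the libraries at 0.798 to 1.20 of their centre, and the depth in reads is unknown.

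Gene FPKM was the sum over isoforms. Genes with a mean of at least 1 FPKM and estimates marked OK (14233) entered limma 3.58.1 (R 4.3.3) as log2(FPKM + 1) with its trend option, a scale that understates changes of low genes. The model had 7 group means, and p-values were Benjamini-Hochberg adjusted within each comparison. Called means an adjusted p under 0.05. Combined S34F and wild-type values are means of the v3 and v1 groups. Isoform usage, the percent of the gene's FPKM, was tested likewise for 41727 isoforms with a mean of 5 to 95 percent. The scripts were tested on simulated data. Tables and figures used Python 3.11.15, pandas 2.3.3 and matplotlib 3.10.9.

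Replicate numbers are shared by the groups in the labels. Same-numbered libraries deviated together in 21 of 21 pairs of groups (r 0.16 to 0.57), which points to pairing, from the data and not from a stated batch. The main model, which gave every call not marked otherwise, left this pairing out. The replicate block takes it in and was run as an alternative, given beside the results it changed. Named were the 7 enzymes, their isoforms of at least 5% mean usage, up to 4 called genes per neighbouring list and the 5 genes most like FECH. Members and lists were chosen with earlier results of these data known. The enzyme of the third step was not used here. Alternatives were a pseudocount of 0.1, no filter, upper quartile and quantile scaling, no trend, the replicate block, only the groups compared, other usage scales and leaving out each library. The use of full-length FECH isoforms alone was chosen after seeing the data.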

Additional observations from a re-analysis of the deposited data

How the results depend on the processing

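The called differences of UROS, PPOX, ALAS1 ENST00000484952 and PPOX ENST00000544598 kept their direction under every alternative run. The count of enzymes called between S34F and knockdown, 1 of 6, was 0 with no filter on low values, 0 after quantile normalization, 0 with only the groups compared, 5 with the replicate block and 0 to 4 when single libraries were left out. Between S34F and wild type the count of 1 was 0 with only the groups compared and 0 to 1 when single libraries were left out. Between S34F and control the count of 0 was 1 after quantile normalization and 1 with the block. With the block it was also 1 for knockdown against control and 1 for wild type against control, and the isoform count between S34F and wild type was 1. The block changed no other call of an enzyme or of their isoforms than those given beside the results, and over all genes it raised the share called between knockdown and control to 11.8 percent, against 2.85 percent without it. The cause of these changes was not tested. The description of FECH with wild type against knockdown, 1.33, was 1.54 with the full-length isoforms alone, chosen after seeing the data, and 1.18 to 1.49 when single libraries were left out. UROS kept its call in 13 of 21 alternatives (adjusted p 0.00689 to 0.103) and PPOX in 11 of 21 (0.00990 to 0.218). ALAS1 ENST00000484952 kept its call in 15 of 19 (0.0192 to 0.152) and PPOX ENST00000544598 in 13 of 19 (0.0241 to 0.175). With 2 libraries a group and unknown depth, a difference that was not called is not shown to be absent.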
